A study of Mus musculus with 15 samples.

Results

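Chromatin accessibility of organoid lines grown from liver metastases of round 3 of a serial transplantation was compared with that of lines grown from liver metastases of round 1. The comparison rests on 6 of the 15 lines in the series: 3 lines labelled Met3 and 3 lines labelled Met1, chosen by their titles alone, with all 43020 deposited regions. All 15 lines carry the genotype labelled AKP, were passed through C57Bl6 recipient mice and were cultured as colon cancer organoids, and each library was made from 50000 dissociated cells with the TDE1 transposase. In each round, organoids were put into the colon, and new lines were grown from the liver metastases and from the primary tumours. The other groups, of 3 lines each, are Met2 (liver metastases, round 2), Primary2 and Primary3 (primary tumours, rounds 2 and 3). No primary tumour line of round 1 is analysed here. Each line is a culture expanded outside the animal, which limits it as a model of the tumour, and the sources used here do not give its ancestor. Lines may be related within and across rounds, so p-values reflect the spread between these cultures and nothing more.

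ATAC-seq uses a transposase that inserts sequencing adapters where DNA is not wrapped in nucleosomes, so the number of fragments in a region reads how open it is. Open regions of a genome are mostly promoters and enhancers held open by transcription factors, and the set of open enhancers differs between cell types and cell states far more than the set of open promoters. Metastases of colon cancer form most often in the liver, and serial transplantation is a standard way to follow cancer cells that have repeatedly travelled there. The study's title concerns GATA6, a zinc-finger transcription factor of endodermal epithelium. The regions are given on mouse build mm9, and the reference tables used here are on another build, so regions were not assigned to genes, no sequence was read, and the labelled cell type was not checked against marker genes.

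The 6 libraries held between 790233 and 3342414 counts in regions. Met1 replicate 1 was the shallowest, with a median of 13 counts per region, and it stood apart from the other Met1 lines: across regions its log2 CPM (counts scaled to a common library size) correlated with theirs at r = 0.723 and 0.719, while Met1 replicates 2 and 3 correlated at 0.897. The Met3 lines correlated with each other at 0.862 to 0.885, and a Met1 line with a Met3 line at 0.627 to 0.754. Results are therefore also given without Met1 replicate 1 where it moved them. Among the other groups, Primary3 replicate 2 held 285633 counts, with a median of 4 per region.

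Of the 39952 regions with enough counts to test, 3813 (9.54%) differed between Met3 and Met1 by edgeR's quasi-likelihood test at a Benjamini-Hochberg adjusted p under 0.05, and 9365 (23.4%) at an unadjusted p under 0.05. Accessibility was higher in Met3 at 2389 regions (5.98%) and lower at 1424 (3.56%). The changes were large: the median log2 fold change was 1.77 among the higher regions and -2.11 among the lower, against -0.04 over all tested regions. Differences of at least 4-fold were found at 952 higher (39.8%) and 783 lower regions (55.0%), and at least 16-fold differences at 78 and 45. The 3 Met3 values lay wholly above the 3 Met1 values at 2354 of the higher regions (98.5%) and wholly below at 1348 of the lower (94.7%), shares that the choice of called regions largely sets. Over all tested regions, 15.9% were wholly above and 13.8% wholly below.

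The number of calls moved with single lines. It was 3577 without Met1 replicate 1, 2025 without Met1 replicate 2, 1940 without Met1 replicate 3, 1852 without Met3 replicate 1, 2254 without Met3 replicate 2 and 2516 without Met3 replicate 3. In all 6 of these fits, 855 of the higher regions (35.8%) and 311 of the lower (21.8%) stayed called in their direction, and none was called in the opposite direction. The balance of the directions depended on the scaling: 62.7% of calls were higher with TMM, and 50.6% (1871 of 3700) when libraries were scaled by their total counts, a scaling that moved the median log2 fold change over all regions from -0.04 to -0.17.

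**Figure D1:**
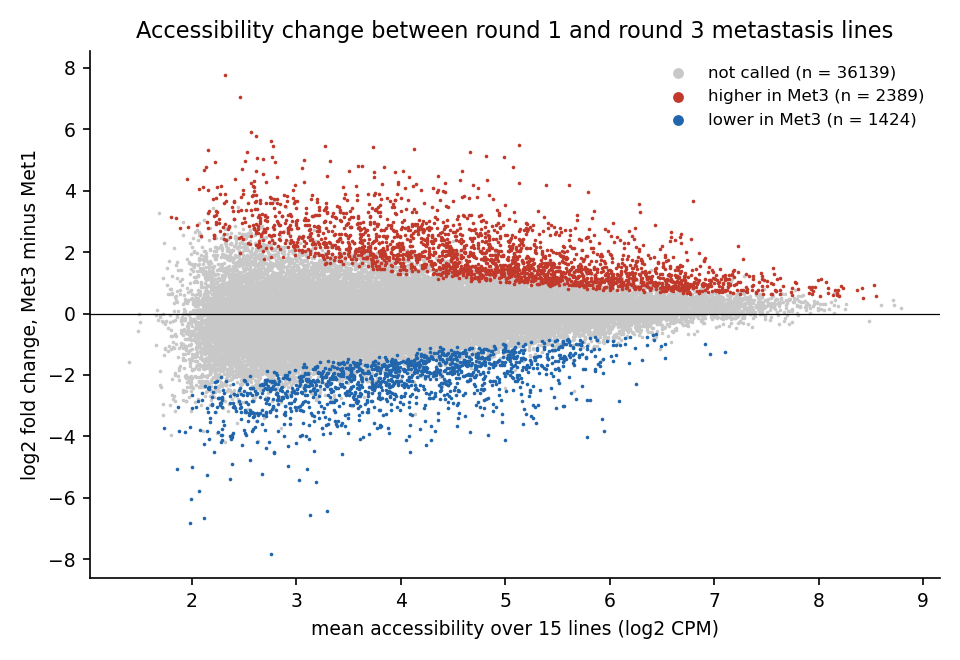
Change in accessibility against mean accessibility for the 39952 tested regions. The x axis is the mean over 15 lines in log2 CPM, and the y axis is the log2 fold change, Met3 minus Met1; red points (2389) were called higher in Met3, blue points (1424) lower and grey points were not called. Red points continue to the right edge, where blue points end: in the top quartile of mean accessibility 1097 regions were higher and 243 lower.

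The higher regions had a median of 12.5 CPM in Met1 (quartiles 5.01 and 30.0) and 44.5 in Met3 (24.3 and 81.2). The lower regions went from a median of 24.5 CPM in Met1 (15.2 and 37.3) to 5.35 in Met3 (2.52 and 10.7). Over all tested regions these medians were 15.2 in Met1 and 14.3 in Met3. Met1 lay under 2 CPM at 222 of the higher regions (9.29%), and Met3 under 2 CPM at 270 of the lower (19.0%).

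The directions also differed with the strength of a region, as the plot of change against mean accessibility shows. In the lowest quartile of mean log2 CPM, 257 regions were higher and 303 lower. In the top quartile, 1097 were higher and 243 lower, of 9988 regions in each quartile. The excess in the top quartile was smaller in the 4 other fits in which it was counted: 1076 higher and 266 lower with DESeq2's size factors, 798 higher and 318 lower without Met1 replicate 1, 868 and 363 with scaling by total counts, and 748 and 427 after a smooth trend on signal was removed from each library. In that last fit, 373 were higher and 187 lower in the lowest quartile, the opposite side from the count above. Width differed less than strength: the median was 794 bp for the higher regions, 897 bp for the lower and 791 bp for all tested.

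The 12 strongest increases among regions of at least median signal lay on 11 chromosomes, with log2 fold changes from 4.33 to 5.49. All 12 were low in Met1, at group means of 0.908 to 4.05 CPM, and reached 29.7 to 92.1 CPM in Met3. The leading region, peak_27826 at chr14:37275379-37276091, held 4.53, 1.27 and 1.79 CPM in Met1 replicates 1 to 3 (14 counts in all) and 107, 71.0 and 98.4 CPM in Met3 (514 counts). The lowest Met3 line lay far above the highest Met1 line, with a fold change of 5.49 on the log2 scale and an SE of 0.43 (edgeR adjusted p = 1.27e-07). The Met2 lines had already moved, at 43.2, 34.1 and 57.3 CPM, while the Primary2 lines held 6.45 to 9.27 and the Primary3 lines 19.1 to 35.0.

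At peak_74058 on chr5:82033720-82034319, Met1 held 0, 0.634 and 2.09 CPM and Met3 74.7, 37.0 and 38.2, which is 5.35 on the log2 scale with an SE of 0.71 (edgeR adjusted p = 7.42e-05). The 6 primary lines there held between 0 and 3.15 CPM, and the Met2 lines up to 59.4, so only metastasis lines of later rounds stood high. The same held at peak_6901 on chr10:31797306-31797920, where Met1 lay between 1.19 and 2.26 CPM, Met3 between 59.6 and 79.6, and the primary lines at or below 4.63, although Met2 replicate 1 held only 5.98. At peak_32191 on chr15:67303065-67304039 the Met3 lines were less even: 101, 100 and 36.3 CPM against 1.13, 3.49 and 1.49 in Met1 and at most 7.34 in any primary line.

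The primary lines were not at the Met1 level everywhere among the strongest increases. At peak_98297 on chr8:102507600-102508287, Met1 held 6.79, 0.634 and 3.28 CPM and Met3 82.6, 82.8 and 63.5, while Primary2 replicate 3 reached 45.2 and the Primary3 lines 12.7 to 32.2. Over the 12 regions, every Met3 line exceeded every primary line at 10 (11.4% of all tested regions). Every primary line exceeded every Met1 line at 3 (2576 of all 39952 tested). The 12 regions were chosen with the same Met1 and Met3 lines, so these counts are descriptions. All 12 kept their call when any of the 6 lines was left out.

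The 12 strongest decreases among regions of at least median signal lay on 7 chromosomes, with log2 fold changes from -4.49 to -3.77. Their Met1 means were 27.3 to 77.7 CPM and their Met3 means 1.45 to 5.36. Over all lower regions, weaker ones included, the fold change reached -7.82. The leading region, peak_56017 at chr2:132023635-132024417, held 38.5, 66.9 and 54.9 CPM in Met1 (429 counts) and 1.82, 1.14 and 4.53 in Met3 (13 counts), which is -4.49 on the log2 scale with an SE of 0.77 (edgeR adjusted p = 8.16e-04). The primary lines resembled Met3 and not Met1 there, at 0 to 12.9 CPM. At peak_100761 on chr9:7681748-7682716 the picture was alike: Met1 held 48.7, 72.6 and 65.0 CPM, Met3 3.04, 2.67 and 5.18, Primary2 7.26 to 23.5 and Primary3 0 to 2.58. At both regions the Met1 lines stood above the other 12 lines, Met2 included.

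Other strong decreases left Met3 below Met1 and below both primary groups. At peak_80765 on chr6:31098423-31099814, a region of 1391 bp, Met1 was uneven at 28.3, 53.6 and 133 CPM, and all 3 Met3 lines were low at 5.47, 4.20 and 3.88. The Primary2 lines held 87.1 to 119 CPM and the Primary3 lines 41.4 to 110, so here Met3 differed from primary lines as well as from Met1. peak_82167 on chr6:54978534-54979667 followed the same order, with 38.5, 51.4 and 143 CPM in Met1, 3.64, 7.25 and 5.18 in Met3 and 44.6 to 131 over the 6 primary lines. At peak_8939 on chr10:84167403-84168489, Met1 held 44.2, 63.1 and 80.6 CPM and Met3 3.64, 3.81 and 3.24, even values within Met3, for a change of -4.12 on the log2 scale with an SE of 0.56 (edgeR adjusted p = 1.01e-04).

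Of the 12 decreases, 10 kept their call whichever line was left out. peak_66652 on chr4:114250772-114251349 held 15.9, 61.5 and 67.4 CPM in Met1 and 4.86, 4.20 and 0 in Met3, with edgeR adjusted p = 0.0176, and stayed called only without Met1 replicate 1. peak_63072 on chr3:131677474-131678197 (6.79, 25.4 and 52.5 CPM in Met1 against 0, 3.05 and 1.29 in Met3) lost its call without Met1 replicate 3. Every Met3 line lay below every primary line at 8 of the 12 (8.06% of all tested regions). Every primary line lay below every Met1 line at 3 (2810 of all 39952 tested). These 12 were likewise chosen with the same Met1 and Met3 lines.

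**Figure D2:**
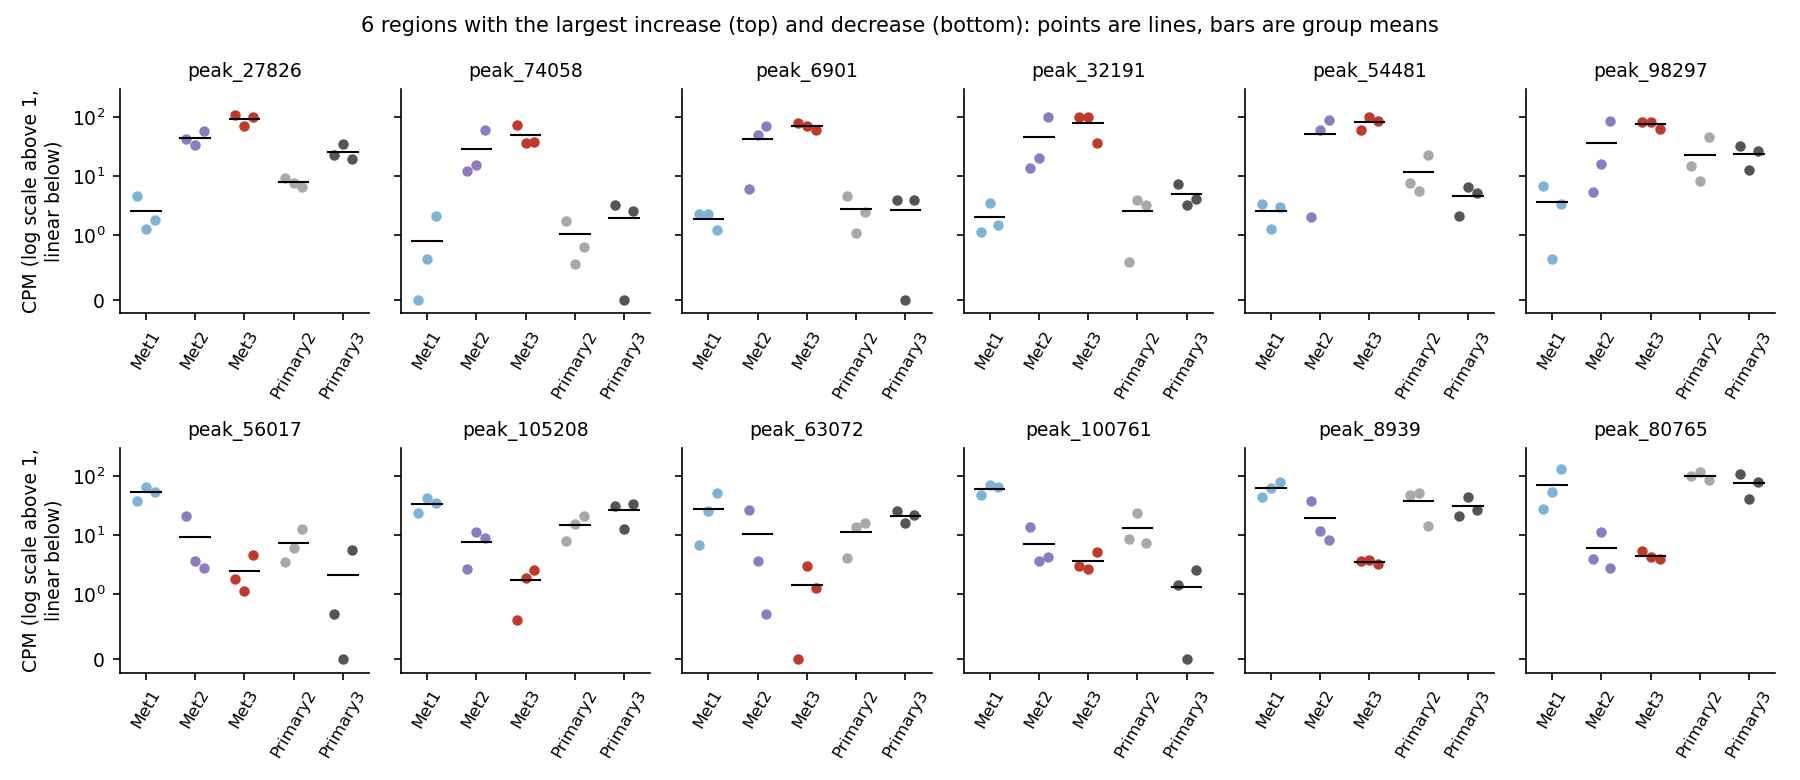
CPM of each of the 15 lines at the 6 regions with the largest increase (top row) and the 6 with the largest decrease (bottom row) among called regions of at least median signal; the axis is logarithmic above 1 and linear below, points are lines and bars are group means. Met3 points lie above all Met1 points in the top row and below them in the bottom row; the primary points lie near Met1 at peak_6901 and near Met3 at peak_56017, and both primary means lie above the Met1 mean at peak_80765.

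Regions were also ranked by their difference in mean CPM. The 5 largest gains had log2 fold changes of 0.84 to 1.49, below the median of 1.77 over all higher regions. The 5 largest losses had -3.43 to -1.26, around the median of -2.11 over all lower regions. The largest gain in mean CPM was at peak_35239 on chr16:5134841-5137027, a region of 2186 bp, where Met1 held 186, 204 and 311 CPM and Met3 448, 435 and 466, a 1.92-fold difference with no overlap of the groups (edgeR adjusted p = 0.0037). The 6 primary lines held 337 to 387 there, between the groups. peak_102136 on chr9:45654301-45655542 rose 2.81-fold, from 56.6, 93.9 and 133 CPM to 282, 262 and 271. Of the 5 largest gains, 3 kept their call in every leave-one-out fit. peak_88421 on chromosome 7 (161, 181 and 221 CPM in Met1, 430, 386 and 350 in Met3) stayed called in only 1 of the 6, the fit without Met3 replicate 3.

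The largest losses in CPM were at peak_82106 (chr6:54439694-54441572), peak_84557 (chr6:108401380-108405371) and peak_76720 (chr5:120120190-120121284). peak_82106 fell from 139, 205 and 197 CPM to 83.8, 73.6 and 59.6 (-1.33 on the log2 scale, SE 0.21), with the 6 primary lines between at 106 to 129. peak_76720 fell from 61.1, 143 and 129 CPM to 10.9, 12.2 and 7.77, a 10.8-fold difference that missed the threshold without Met3 replicate 1. At that region Met2 replicate 1 held 234 CPM, more than any Met1 line, while Met2 replicates 2 and 3 held 32.3 and 25.2.

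Wide regions were called as well. The 3 widest increases had log2 fold changes of 0.62 to 1.10, below the median of 1.77 over all higher regions. The 3 widest decreases had -2.36 to -1.26, around the median of -2.11 over all lower regions. The widest called region without overlap of the lines was peak_32525 on chr15:74761370-74766035 (4665 bp), at 138, 185 and 147 CPM in Met1 and 255, 279 and 191 in Met3 (1.54-fold, edgeR adjusted p = 0.0473), which stayed called in only 1 of the 6 leave-one-out fits, the fit without Met3 replicate 3. The widest decreases were peak_84557 (3991 bp) and peak_52913 on chr2:35316518-35320287 (3769 bp). peak_52913 fell 5.13-fold, from 41.9, 70.4 and 37.9 CPM to 7.90, 11.4 and 9.71, and kept its call in every leave-one-out fit. The primary lines held 41.4 to 71.1 CPM at peak_52913, within the range of Met1 apart from Primary2 replicate 2.

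A few weak regions held no count in a whole group. Met1 held none at 3 called regions, of which the strongest was peak_107644 on chrX:134238511-134238757, with 13.4, 11.1 and 13.6 CPM in Met3. Against the level of 3 counts over the Met1 group, that is at least 30.8-fold higher. Met3 held none at 6 called regions, led by peak_54082 on chr2:79427565-79427968, with 7.93, 11.7 and 18.5 CPM in Met1, at least 26.1-fold lower in Met3 by the same floor. The primary lines held 3.23 to 12.7 CPM at peak_54082 and the Met2 lines 0.699 to 3.98. These limits cover counting error only.

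Along the rounds, the Met2 lines lay between the other metastasis groups at most called regions, nearer to Met3. On a scale where the Met1 mean log2 CPM is 0 and the Met3 mean is 1, the Met2 mean had a median position of 0.709 over the higher regions and 0.605 over the lower. It lay between the groups at 2090 of the higher regions (87.5%) and 87.4% of the lower, and past Met3 at 280 and 153. All 3 Met2 lines exceeded all 3 Met1 lines at 1355 of the higher regions (56.7%, against 8.58% of all tested), and all 3 lay below them at 733 of the lower (51.5%, against 8.65%). Met1 lines enter both the choice of regions and these positions, so they are descriptions. The fitted median log2 fold change at the higher regions was 1.33 for Met2 against Met1 and 0.41 for Met3 against Met2, and at the lower regions -1.14 and -0.89. Both comparisons share lines with the choice of regions. Over all tested regions, edgeR called 1054 higher (2.64%) and 363 lower (0.909%) in Met2 against Met1. In Met3 against Met2 edgeR called 0 and DESeq2 44, and before adjustment edgeR's p was under 0.05 at 2926 regions (7.32%).

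The 3 Met2 lines did not hold the same place. Over the higher regions their median positions were 0.429, 0.841 and 0.882 for replicates 1, 2 and 3, and over the lower regions 0.349, 0.637 and 0.818. Met2 replicate 1 was nearer to Met3 than to Met1, on the log2(CPM + 1) scale, at 1079 of the higher regions (45.2%) and 537 of the lower (37.7%), whereas replicate 2 was nearer at 89.9% and 68.3% and replicate 3 at 86.6% and 78.6%. Over all tested regions these shares were 45.9%, 60.6% and 62.1% for replicates 1, 2 and 3. Among the 12 strongest increases, replicates 2 and 3 were nearer to Met3 at all 12 and replicate 1 at 5. At peak_54481 on chr2:93026009-93026682 replicate 1 held 1.99 CPM, within the Met1 range of 1.27 to 3.40, while replicate 2 held 60.5, just under the Met3 range of 60.7 to 99.6, and replicate 3 held 89.5, inside it. At peak_37589 on chr16:63668955-63669653 the order was turned: replicate 1 held 59.1 CPM and replicates 2 and 3 22.0 and 18.2, between Met1 (0.634 to 5.66) and Met3 (35.5 to 63.8).

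**Figure D3:**
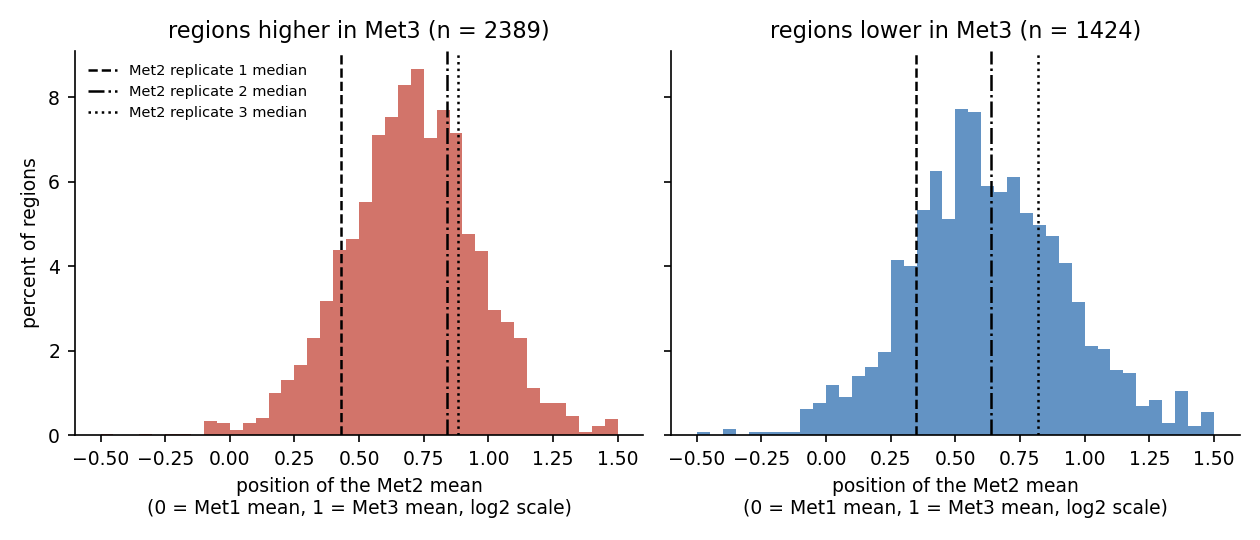
Position of the Met2 mean between the Met1 mean (0) and the Met3 mean (1) on the log2 scale, as percent of regions, for the 2389 higher (left) and 1424 lower regions (right); vertical lines mark the medians of the single Met2 lines. Most regions lie between 0 and 1, and Met2 replicate 1 (0.429 and 0.349) sits to the left of replicates 2 and 3 in both panels.

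Changed regions had like-changed neighbours more often than the share over all tested regions, though most of their neighbours were not called alike. At most 2 kb apart, 28.2% of higher calls had a higher neighbour (5.98% of all tested regions were higher). For lower calls the share was 22.9% (3.56% of all tested were lower). Of neighbouring tested regions at most 2 kb apart, the fold changes correlated at r = 0.51 (3283 pairs, which share local sequence and any local copy number), and this fell to 0.23 for neighbours over 50 kb apart (8349 pairs). Runs of at least 3 consecutive regions called in the same direction, with gaps of at most 50 kb, numbered 57 higher and 34 lower, and took in 198 regions called higher (8.29% of that list) and 114 called lower (8.01%). Fewer calls gave fewer runs: 17 to 26 higher and 7 to 13 lower runs were left without any one of Met1 replicates 2 and 3 and the 3 Met3 lines, with the fewest higher runs without Met3 replicate 1 (17).

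The longest run held 8 regions over 35.4 kb at chr5:145044605-145080007. Summed over its regions, Met1 held 186, 301 and 292 CPM and Met3 872, 582 and 675, with Met2 at 519 to 709 and the primary lines at 229 to 412. The 3 Met3 lines lay above all lines of Met1 and both primary groups. Its strongest region, peak_79184, went from 9.06, 22.5 and 26.0 CPM to 126, 115 and 112, which is 2.51 on the log2 scale with an SE of 0.29 (edgeR adjusted p = 2.46e-05). Of the 8 regions, 3 were called in every leave-one-out fit. A run of 5 regions at chr19:16501881-16589136 rose from 62.3, 43.5 and 48.3 CPM to 239, 225 and 234, very even values within Met3, while the primary lines held 51.0 to 80.1.

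Among the runs of lower regions, 4 regions at chr3:28109990-28203292 fell from 87.2, 144 and 123 CPM to 11.5, 12.2 and 11.7. Met2 replicate 1 there kept 97.0 CPM, within the Met1 range, and Met2 replicates 2 and 3 held 24.2 and 12.6. Another 4 regions at chr9:117036858-117093301 fell from 72.5, 66.9 and 73.7 CPM to 6.07, 5.72 and 8.42, with Met2 replicate 1 at 104 and replicates 2 and 3 at 11.7 and 21.7. They lay within a stretch of chromosome 9, described below, where 90.4% of tested regions had a negative fold change. At chr10:84163867-84190377, 4 regions around peak_8939 fell from 120, 170 and 216 CPM to 19.4, 18.3 and 25.3, and all 4 were called in every leave-one-out fit. The primary lines held 58.1 to 144 CPM there, above every Met3 line.

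Neighbours could also change in opposite directions. Of neighbouring called regions at most 2 kb apart, 71 pairs were both higher, 24 both lower and 2 opposite, and at 2 to 10 kb these numbers were 178, 73 and 7. Pairs with only 1 called region were more frequent, at 519 and 1997. peak_56017, the strongest decrease among regions of at least median signal, lay 4564 bp from peak_56018 (chr2:132028981-132029904). The latter rose from 10.2, 23.2 and 20.9 CPM in Met1 to 38.3, 45.4 and 40.8 in Met3. That rise (1.14 on the log2 scale, SE 0.35, edgeR adjusted p = 0.0397) was called in none of the 6 leave-one-out fits. At chr10:21564153-21564611, peak_6655 fell from 11.3, 17.4 and 21.8 CPM to 2.43, 3.43 and 2.59 and was called in all 6 leave-one-out fits. Its neighbour 1586 bp away, peak_6656, rose from 30.6, 35.2 and 44.2 to 106, 105 and 69.3 CPM and was called in 3 of the 6.

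Some stretches of chromosomes shifted as a whole. The longest such stretch, by the number of consecutive 1 Mb windows with a Met3 mean lower than the Met1 mean by at least 0.2 on the log2 scale, lay near the end of chromosome 9. There, between 106 and 118 Mb, 253 of 280 tested regions (90.4%) had a negative fold change. Their median log2 fold change was -0.84, against -0.04 over all tested regions. Of the 280, 59 were called lower (21.1%, against 3.56% of all tested) and 1 higher (0.357%, against 5.98%). Each line's median deviation over the 280 regions (log2 CPM relative to the mean of all lines and to the line's own median) was 0.24, 0.21 and 0.33 in Met1 and -0.53, -0.57 and -0.48 in Met3. The mean difference was -0.78, a description, since the stretch was chosen on the same comparison. The Met2 lines held 0.15, -0.17 and 0.17 and the 6 primary lines 0.03 to 0.20, so the 3 Met3 lines stood below all others. The rule that delimits the stretch was set after its values were seen. The number of lower calls in it was 65 without Met1 replicate 1 and 30 to 36 without any other Met1 or Met3 line (30 without Met3 replicate 1).

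The shift was not the same in the 3 Met3 lines outside this stretch. Between 99 and 104 Mb, Met3 replicate 3 was low at -0.70 while replicates 1 and 2 held 0.19 and 0.14, within the Met1 range of 0.03 to 0.22. Between 104 and 106 Mb, replicate 3 was not the lowest Met3 line. The 1 Mb windows there (5 and 13 regions) held -0.92, -0.83 and -0.26, then -0.16, 0.23 and 0.09, in Met3 replicates 1 to 3. Between 118 and 121 Mb, replicate 3 held -0.61 and replicates 1 and 2 0.04 and 0.02. From 121 Mb to the end, all 3 were low again, at -0.45, -0.58 and -0.35 against 0.26 to 0.31 in Met1. Met2 replicates 1 to 3 held 0.33, 0.05 and -0.39 there, so replicate 3 of Met2 lay within the Met3 range. On the first 99 Mb of the chromosome, 140 of 1705 regions were higher (8.21%, against 5.98% of all tested) and 58 lower (3.40%, near the 3.56% of all tested). When each library's 10 Mb window medians were removed, an alternative added after the data were seen, 19 of the 59 lower calls between 106 and 118 Mb remained and 9 regions were called higher. ATAC-seq counts scale with DNA copy number as well as with openness, and which of them moved here was not tested.

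**Figure D4:**
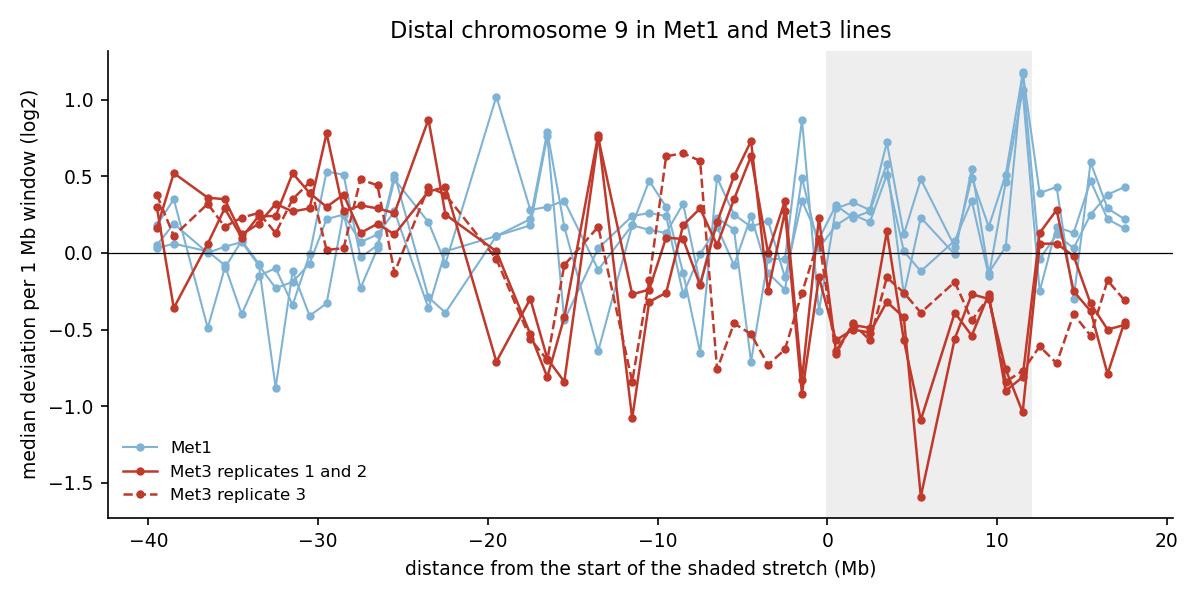
Median deviation of log2 CPM per 1 Mb window along the distal part of chromosome 9 for the 3 Met1 lines (blue) and the 3 Met3 lines (red; replicate 3 dashed), plotted by distance in Mb from the start of the 106 to 118 Mb stretch, which is shaded. In the shaded stretch the Met3 medians over all its regions are -0.53, -0.57 and -0.48 and the Met1 medians 0.24, 0.21 and 0.33. Just after the stretch the dashed line lies below both solid red lines. In the window directly before the stretch the dashed line lies between them (0.09, against -0.16 and 0.23). In the window before that it lies above both (-0.26, against -0.92 and -0.83), and just left of those windows below both.

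Elsewhere a single Met3 line carried a shift. On chromosome 11 between 80 and 90 Mb, 33 of 257 regions (12.8%, against 5.98% of all tested) were called higher by edgeR, but only Met3 replicate 2 stood apart, at 0.68, with replicates 1 and 3 at -0.06 and -0.03 and Met1 at -0.21 to -0.08. A run of 5 higher regions lay inside that stretch, at chr11:84519506-84633338, where Met3 replicate 2 held the most (452 CPM in sum, against 332 and 282 in replicates 1 and 3 and 108 to 131 in Met1). Chromosome 5 had the largest excess of higher regions, 251 of 2531 (9.92%, against 5.98% of all tested) against 32 lower (1.26%, against 3.56%). Its chromosome medians, however, overlapped between the groups: -0.14, -0.19 and -0.20 in Met1 and 0.31, -0.15 and 0.12 in Met3. On chromosome 6 the balance was turned, with 90 higher (3.71%) and 131 lower (5.41%) of 2423, again with overlapping medians. The medians of Met3 and Met1 did not overlap on chromosomes 1, 9, 12 and 17, with mean differences of 0.08, -0.08, 0.06 and 0.06. Each has an exact permutation p of 0.10, the smallest possible with 3 lines against 3, so these 4 are a description. The number of chromosomes without overlap, 4 here, was 2 with a prior count of 0.5 and 8 without Met1 replicate 3. It was 6 without any one of Met1 replicate 1 and the 3 Met3 lines. Lack of overlap is easier to reach with fewer lines.

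At a finer scale, 1366 windows of 1 Mb held at least 10 tested regions. Met3 lay below Met1 by at least 0.5 on the log2 scale, without overlap of the lines, in 90 of them, and above in 65. The strongest decrease was at 28 to 29 Mb of chromosome 3, with medians of 0.86, 1.52 and 1.39 in Met1 and -1.14, -0.59 and -1.21 in Met3. Of its 12 regions, 7 were called lower (3.56% of all tested were lower). This window holds the run of lower regions at chr3:28109990-28203292 given above. The strongest increase was at 23 to 24 Mb of chromosome 9, with -1.17, -1.07 and -1.31 in Met1 and 0.50, 0.71 and 0.92 in Met3. Of its 14 regions, 8 were called higher (5.98% of all tested were higher). Over the first 99 Mb of chromosome 9, which holds that window, the medians were 0.04 to 0.12 in Met1 and 0.12 to 0.19 in Met3. In that window the Met2 lines held 0.23, 0.03 and 0.85, and the primary lines -0.67 to 0.49. The windows of strongest decrease and increase were picked on the same Met3 and Met1 values, so their counts of calls are descriptions.

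Set beside the primary lines, the called regions showed no single order. Over the higher regions the mean of the primary lines lay nearer to Met1 at 1382 (57.8%), and over the lower regions at 835 (58.6%). Every Met3 line lay above every primary line at 1245 of the higher regions (52.1%, against 11.4% of all tested) and below at 633 of the lower (44.5%, against 8.06%), at regions chosen with the same Met3 lines. The mean of the primary lines was lower than that of Met1 at 446 of the higher regions (18.7%, against 53.6% of all tested) and higher than that of Met1 at 315 of the lower (22.1%, against 46.4%). Median CPM at the higher regions was 21.6 in Primary2 and 23.4 in Primary3, and at the lower regions 14.8 and 13.3, in each case between Met1 and Met3. The regions were chosen for Met1 and Met3 lying apart, which favours a place between them for any other group. The shares and medians in this paragraph are therefore descriptions.

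Met2 against Primary2 shares no line with the comparison of Met3 and Met1. At the regions higher in Met3, the median log2 fold change of Met2 against Primary2 was 0.58, with 76.1% positive (51.6% over all tested regions). There edgeR called 416 regions higher (17.4%, against 3.44% of all tested) and 23 lower (0.963%, against 2.77% of all tested). At the regions lower in Met3 the median was -0.47, with 67.3% negative (48.4% over all). Of these, 196 were called lower (13.8%, against 2.77%) and 13 higher (0.913%, against 3.44%). Across the 39952 regions, which share libraries' depth and local sequence and are not independent, the fold changes of both comparisons correlated at r = 0.34. Primary3 against Primary2, which also shares no line, gave r = 0.15. Over all tested regions, edgeR called 0 and DESeq2 54 between the primary rounds, and before adjustment edgeR's p was under 0.05 at 2646 regions (6.62%). At the regions higher in Met3, 56.4% were positive between the primary rounds (45.9% over all), with a median of 0.08, and at the lower regions 61.1% were negative (54.1% over all), with a median of -0.14.

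Whether the change between metastasis rounds differed from the change between primary rounds was tested directly, as (Met3 - Met1) minus (Primary3 - Primary2). The metastasis groups are 2 rounds apart and the primary groups 1, so the intervals are not matched. By edgeR, 521 regions (1.30%) passed at an adjusted p under 0.05, 356 (0.891%) with a positive and 165 (0.413%) with a negative difference. Of these, 340 (95.5%) and 150 (90.9%) were also called in the same direction in Met3 against Met1, which shares those lines. The median log2 fold change at the positive regions was 2.06 between metastasis rounds and -0.35 between primary rounds, and at the negative regions -2.56 and 0.55. The regions were chosen on the difference of both changes, which favours opposite signs, so these medians are descriptions. The count rested on single primary lines as well: it was 79 without Primary3 replicate 3, 80 without Primary2 replicate 1, 134 without Primary3 replicate 1, 205 without Primary2 replicate 3, 314 without the shallow Primary3 replicate 2 and 367 without Primary2 replicate 2. It was 143 to 268 without any one of the Met3 lines or Met1 replicates 2 and 3, with the fewest without Met3 replicate 1 (143), and 693 without Met1 replicate 1.

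The strongest positive difference among regions with some counts in every group was at peak_65408 on chr4:60948493-60948822, a weak region that held 0, 0 and 0.895 CPM in Met1 (3 counts) and 37.1, 4.20 and 18.1 in Met3 (100 counts), while the primary lines lay at or below 2.32 in Primary2 and 0.86 in Primary3. A stronger region was peak_54481, with 2.55 ± 1.13 CPM in Met1 and 81.7 ± 19.6 in Met3 (SD, n = 3), against 5.47 to 22.6 in Primary2 and 2.10 to 6.37 in Primary3 (difference 6.56 on the log2 scale, edgeR adjusted p = 0.00969). Among negative differences, peak_28235 on chr14:49698505-49699064 fell from 15.9, 14.3 and 17.0 CPM in Met1 to 0, 1.53 and 0 in Met3, and the primary lines held 0.579 to 3.28 in Primary2 and 3.19 to 12.4 in Primary3. Its difference was -6.54 on the log2 scale (edgeR adjusted p = 0.00621). peak_105208 was second by fold among the 12 decreases of at least median signal without overlap of lines. It lay within the 106 to 118 Mb stretch of chromosome 9 described above. Its Met1 lines held 23.8, 42.5 and 34.6 CPM and its Met3 lines 0.607, 1.91 and 2.59. Primary2 held 8.11 to 21.0 and Primary3 12.7 to 34.4, with a difference of -5.24 (edgeR adjusted p = 0.00143).

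**Figure D5:**
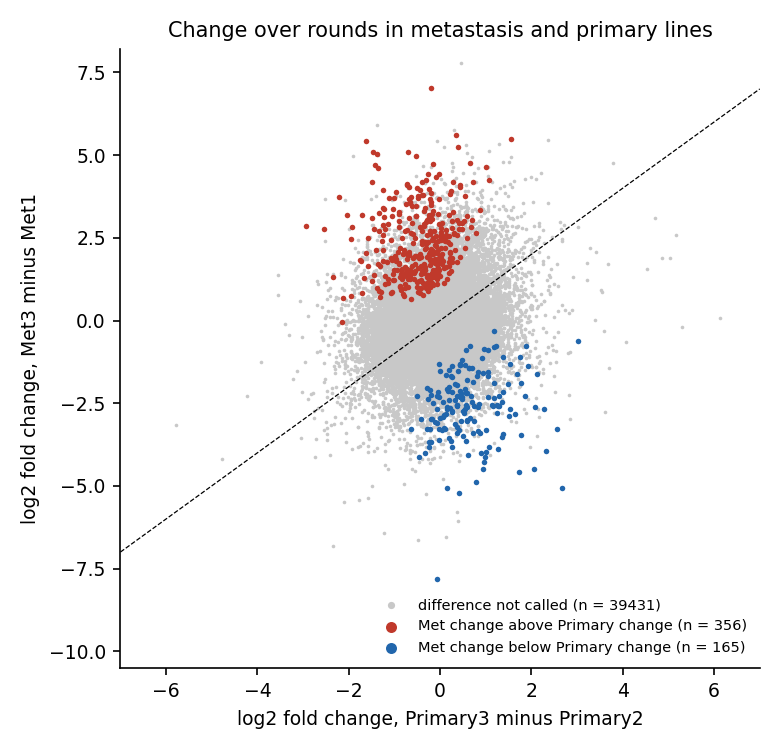
Log2 fold change between metastasis rounds (Met3 minus Met1, y axis) against that between primary rounds (Primary3 minus Primary2, x axis) for each tested region; the dashed line marks equal change. Red points (356) and blue points (165) are regions where the difference of both changes passed the test; the median primary change is -0.35 at the red and 0.55 at the blue points, and it has the sign of the metastasis change at 73 and 29 of them, regions chosen on the difference of both changes.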

How the data were processed

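The authors deposited whole-number read counts per region and library, for 43020 regions named as called over all samples. Per the submitters' processing notes, Bowtie, Picard, SAMtools, MACS2, bedtools and build mm9 were used, with no roles or versions. No source used here says whether reads were shifted or duplicates removed. Coordinates are those of the deposited table. Groups come from the sample titles.

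The filter (edgeR's filterByExpr, at least 10 counts and a total of 15) left 39952 regions (92.9%). edgeR 4.0.16 with limma 3.58.1 in R 4.3.3 fitted 5 group means to all 15 libraries after TMM scaling, with Benjamini-Hochberg adjustment over all tested regions. Log2 CPM used a prior count of 2. Counts in regions ran from 285633 to 5916109 per library. On simulated counts for 38608 regions the test found 16 of 100 planted 2-fold and 80 of 100 planted 4-fold changes, and 4% of its calls were false.

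Regions are named by rule: per direction, the 12 largest fold changes at or above median signal and the 5 largest CPM differences without overlap of lines, the 5 longest runs, the 3 widest, and the 5 largest differences of differences. Regions at 0 counts, neighbour pairs, windows and stretches were picked after their values were seen. Alternatives were DESeq2 1.42.0 (size factors, Wald test), total-count scaling, other filters, a fit of 2 groups, a replicate block, removal of a lowess trend (span 0.3) or of chromosome medians, other gaps and prior counts, and leaving out single lines. Removal of 10 Mb window medians and leaving out primary lines were added after seeing the data. The comparison, lists and alternatives were chosen with earlier results of these data known. Lists of genes, cell type markers and motifs were not used, since the reference tables here are on GRCm38. Other steps ran in Python 3.11.15 (scipy 1.17.1 for exact tests, pandas 2.3.3 and numpy 2.4.6 for tables, matplotlib 3.10.9 for plots).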

Additional observations from a re-analysis of the deposited data

Results flagged for a closer look

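The change from Met1 to Met3 differed from the change from Primary2 to Primary3 at 521 regions by edgeR's test of the difference itself, which is why it is listed here. The primary groups are 1 round apart and the metastasis groups 2, and the effect of that was not tested. The count was between 79 and 693 when single lines were left out.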

How the results depend on the processing

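Leaving out 1 Met1 or Met3 line at a time gave 1852 to 3577 called regions, 1304 to 2092 of them higher and 548 to 1485 lower, and each such fit has fewer lines. The difference of differences, with primary lines left out as well, gave 79 to 693 regions. Runs numbered 17 to 50 (higher) and 7 to 38 (lower), Met2 positions ran from 0.684 to 0.738 (higher) and 0.546 to 0.651 (lower), and chromosomes without overlap of lines numbered 4 to 8. DESeq2's Wald test gave 1204 regions for the difference of differences (521 by edgeR); the cause was not tested. Gaps of at most 20 kb left 20 runs of lower regions, and a prior count of 0.5 left 2 chromosomes without overlap. Same-numbered Met1 and Met3 lines did not deviate together (correlations -0.0394, -0.0383 and 0.0255). These values cannot show whether the numbers pair the lines, since related lines need not share such deviations. With the replicate block, 3284 regions were called (3923 in a fit of Met1 and Met3 only), and 346 for the difference of differences. Over the other alternatives, calls numbered 3073 (minimum count 30) to 4547 (DESeq2's Wald test). For the 55 named regions, 863 of 924 alternative values stayed on their side of the threshold, 61 no longer passed it and 0 changed direction. At these depths, 16 of 100 simulated 2-fold changes and 80 of 100 4-fold changes were recovered, in regions of at least median signal.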
